A study of Mus musculus with 8 samples.

Results

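The enzymes that break down fatty acids in liver, together with 1 enzyme of ketone body metabolism, were followed in mouse liver after extended hepatectomy, an operation that removes most of this organ. The set was defined by name, as 33 gene symbols, and all 33 were found among the 47719 genes of the deposited table. By textbook location 17 are mitochondrial, 9 are peroxisomal, 6 act at both organelles or elsewhere, and Bdh1 alone belongs to ketone body metabolism. All 33 passed the filter of at least 1 FPKM in at least 2 libraries, so none was lost to low values. FPKM is a fragment number scaled by transcript length and library size, so levels can be compared between genes.

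The data are 8 RNA libraries of whole liver from wild type C57BL/6 mice. The groups are 4 libraries from day 2 after hepatectomy, 2 from day 14 after hepatectomy, and 2 from normal control mice aged 10 weeks. The study concerns encapsulated human hepatocyte organoids (eLO) as a treatment for liver failure, and its design text names EMC-treated controls and eLO at day 2 and eLO alone at day 14. No label assigns a day 2 library to either treatment, so the treatments were not compared. Against control, surgery, treatment and time cannot be told apart. Between day 14 and day 2, which share the surgery, time and treatment cannot be told apart. The age of the operated mice is not given in the sources used here. Nothing in the labels states that each library is a different mouse, and p-values then reflect only the spread among libraries, which may be technical. For day 2 replicate 1 the title and the age label disagree (day 1 and day 2), and the age label was followed.

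Fatty acids are first joined to coenzyme A by acyl-CoA synthetases. Long chains then enter mitochondria as carnitine esters and are shortened in repeated rounds of dehydrogenation, hydration, a second dehydrogenation and thiolytic cleavage, with electrons passed to the respiratory chain through the electron transfer flavoproteins. Peroxisomes shorten very long and branched chains and bile acid side chains, and hand shortened products on to mitochondria. In liver the resulting acetyl-CoA can be made into ketone bodies, and many of these genes are known targets of the fatty acid receptor PPAR-alpha.

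Table-wide facts bear on the values as follows. The total FPKM of a library ran from 686332 to 1298005, and in day 14 replicate 1 a single gene held 11.1% of it. Read counts are not in the table, so depth is known only in relative terms. The most common ratio of FPKM values under 0.1 put the libraries at 0.64 to 1.13 times control replicate 1, with day 14 replicate 1 the shallowest. These ratios track depth only where FPKM was scaled by the total fragment number. All 6 hepatectomy libraries were tilted by transcript length and base composition. The median log2 level relative to control was higher in the shortest than in the longest length quartile of genes, by 0.45 to 0.78, where the controls had 0.03 and -0.03. Between the GC-richest and GC-poorest quartiles the gap was 0.52 to 0.80, where the controls had 0.02 and -0.02. The control values mirror each other by construction, because the reference was the mean of the same 2 controls. They are therefore no independent measure of an untilted library. For these enzymes day 2 replicate 3 was most often the lowest of its group, and day 14 replicate 1 was mostly lower than replicate 2. The main results that rest on these libraries are given with and without them. Day 2 replicate 3 also has TVR in its title, which no label explains. Of 10 listed hepatocyte markers 9 matched, and they summed to 37100 to 62460 FPKM at day 2, 54180 to 57560 at day 14 and 47010 to 50170 in control. Alb and Apoa1 made up most of each sum. At day 2 Apoa1 had a log2 change of 1.02 and was not called, while every other matched marker had a change below 0. Among them Cps1 alone was called, at -1.73 ± 0.53 (limma adjusted p = 0.0499). Neutrophil markers summed to 31.8 to 320 FPKM at day 2, 15.5 to 68.1 at day 14 and 4.14 to 7.80 in control. S100a8, S100a9 and Retnlg made up most of each sum and were called higher at day 2. Csf3r was not called (limma adjusted p = 0.23). Ly6g did not pass the filter, averaging 0.175 FPKM at day 2 and 0.368 FPKM in control. Markers of sinusoidal endothelium summed to 16.8 to 57.3 FPKM at day 2, 19.95 to 37.8 at day 14 and 68.3 to 72.2 in control. In whole liver, fewer hepatocytes and less RNA per hepatocyte cannot be told apart, and the part of other cell types in the results was not tested.

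The genes called in any comparison lie, on GRCm38 with the GENCODE M21 annotation, at chr8:46471037-46536051 (plus strand) for Acsl1, chr5:8966033-8997324 (minus) for Crot, chr4:108043839-108144998 (minus) for Scp2, chr3:121758774-121815302 (minus) for Abcd3 and chr9:104063377-104127725 (plus) for Acad11. Acadl lies at chr1:66830839-66863277 (minus), Crat at chr2:30400471-30415813 (minus), Hadha at chr5:30118304-30155162 (minus) and Etfdh at chr3:79603788-79629500 (minus).

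Sequences are shown for a pair of genes that share a promoter region and whose ratio is reported, and for the member with the largest log2 change at day 2. They are RefSeq promoter windows on GRCm38.p6, written 5′ to 3′ on the gene's strand, from 250 bases before a start site to 50 after it. Such windows matched 29 of the 33 genes. Hadha and Hadhb encode the alpha and beta subunits of 1 enzyme complex and are transcribed away from each other on chromosome 5. The start sites of these RefSeq windows are 273 bases apart. In GENCODE M21 the genes begin closer together, at 30155162 for Hadha and 30155248 for Hadhb. Their windows share 228 bases, given in capitals in the Hadhb window at chr5:30155003-30155302 (plus strand). Acsl1 has 2 annotated start sites on the plus strand of chromosome 8, with windows at chr8:46470787-46471086 and chr8:46490716-46491015. Their GC content was 74.0% and 50%, and the gene-level FPKM does not separate them. No part of the Acsl1 windows is marked.
Hadhb: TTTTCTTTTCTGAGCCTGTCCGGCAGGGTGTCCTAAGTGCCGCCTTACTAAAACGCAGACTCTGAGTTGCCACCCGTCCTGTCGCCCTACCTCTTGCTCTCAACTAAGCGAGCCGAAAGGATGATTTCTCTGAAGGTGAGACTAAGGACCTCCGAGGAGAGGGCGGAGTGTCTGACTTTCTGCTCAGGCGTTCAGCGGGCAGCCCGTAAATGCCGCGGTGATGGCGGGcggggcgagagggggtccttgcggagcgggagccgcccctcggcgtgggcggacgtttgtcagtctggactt
Acsl1 start site 1: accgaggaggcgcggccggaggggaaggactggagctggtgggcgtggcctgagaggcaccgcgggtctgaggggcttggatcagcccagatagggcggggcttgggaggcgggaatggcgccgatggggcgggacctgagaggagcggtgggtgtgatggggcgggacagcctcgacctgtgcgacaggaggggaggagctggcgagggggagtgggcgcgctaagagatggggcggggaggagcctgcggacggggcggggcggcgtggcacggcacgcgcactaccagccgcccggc
Acsl1 start site 2: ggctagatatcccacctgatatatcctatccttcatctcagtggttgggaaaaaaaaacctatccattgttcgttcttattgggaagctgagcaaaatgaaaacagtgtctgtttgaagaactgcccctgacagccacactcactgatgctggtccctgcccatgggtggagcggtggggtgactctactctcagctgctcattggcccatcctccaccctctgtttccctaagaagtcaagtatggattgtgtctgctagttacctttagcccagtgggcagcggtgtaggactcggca

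The kind of element bound by PPAR-alpha, a direct repeat of AGGTCA with 1 base between the copies, was searched on both strands with up to 2 mismatches. It matched 3 of the 33 member windows, or 9.09%, against 3.86% of all 32851 windows. The 3 matches are shown because they are all that was found, with matching bases in capitals. They lie in the windows of Echs1, Etfa and Acox2, and a match is a description of letters, not of binding.
Echs1 at chr7:140116492-140116504: AGGTCAcgGGTCc
Etfa at chr9:55512308-55512320, read on the strand opposite to the gene: AGGgCAaAGGTaA
Acox2 at chr14:8258818-8258830: AGGaCAgAGGTgA

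The first question was how the remnant at day 2 differed from normal liver. Acadl, a long-chain dehydrogenase, and Crat, which makes acetylcarnitine, rose about to the same extent, while Acsl1, Crot, Scp2, Abcd3 and Acad11 fell. Thus 2 of 33 members rose and 5 fell (limma on log2(FPKM + 1), Benjamini-Hochberg adjusted p under 0.05 over 12340 genes). At an unadjusted p under 0.05 there were 11 members, where 37.5% of all genes passed. The 7 calls make up the same share as the 21.2% of all genes called, so their number is not a result about the enzymes. By direction, 9.72% of all genes rose and 11.5% fell. The members' median log2 change was -0.23, against 0.05 for all genes. By compartment the median was -0.03 for the 17 mitochondrial members, of which 1 rose and none fell, and -0.67 for the 9 peroxisomal members, of which none rose and 3 fell. In single libraries the peroxisomal median lay at -0.73, -0.20, -1.05 and -0.80 in day 2 replicates 1 to 4 and the mitochondrial median at -0.56, -0.07, -0.09 and -0.03, all relative to the control mean. The peroxisomal median was the lower in each of the 4 libraries, and the difference between compartments was not tested. Under quantile scaling the gap was narrower, with medians of -0.25 for mitochondrial and -0.76 for peroxisomal members. It was also narrower with the length and GC trend removed, at -0.19 and -0.67. Day 2 values lay wholly below control in 13 members and wholly above in 2, where 25.4% and 26.1% of all genes did so.

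**Figure D1:**
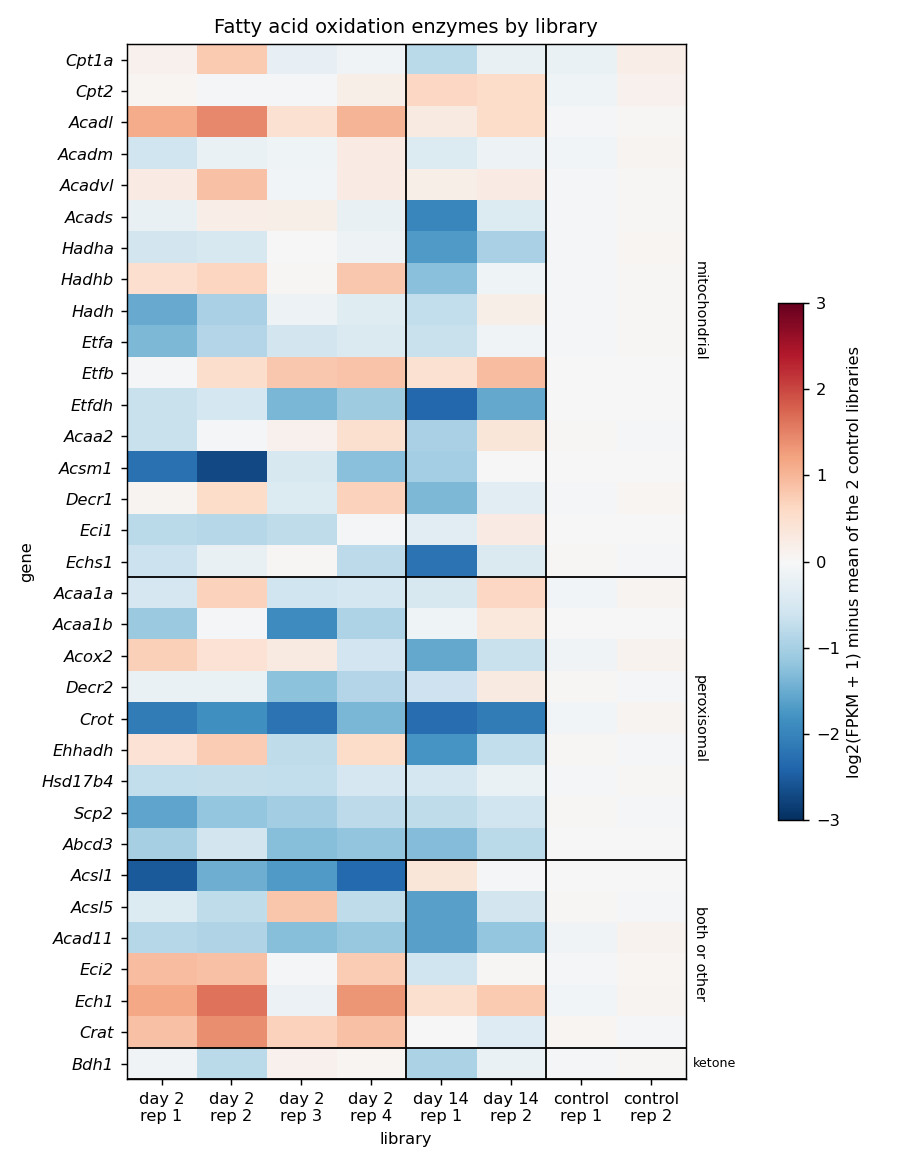
Heat map of the 33 enzymes (rows, in blocks by compartment) in the 8 libraries (columns). Colour gives log2(FPKM + 1) minus the mean of the 2 control libraries, with red above and blue below control. Crot is blue in all 6 hepatectomy libraries, Acsl1 only at day 2, and day 14 replicate 1 is bluer than replicate 2 in most rows.

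Fatty acid activation and transfer to carnitine held the members with the largest log2 changes at day 2. Acsl1, the main long-chain acyl-CoA synthetase of liver, stood at 36.1, 76.8, 65.2 and 41.5 FPKM in day 2 replicates 1 to 4, against 214 and 212 FPKM in the controls. All 4 day 2 libraries lay below both controls by a wide gap. Its mean was 54.9 ± 19.3 FPKM (SD, n = 4) at day 2 and 213 ± 1.26 FPKM (n = 2) in control, a log2 change of -2.0 ± 0.34 (SE; limma adjusted p = 0.00835). Crot, which links medium chains leaving peroxisomes to carnitine, stood at 60.5, 72.2, 56.1 and 100 FPKM at day 2 and at 247 and 278 FPKM in the controls. The groups did not overlap. Crot ranked 24 among the 33 members by mean FPKM at day 2 and 5 in control. The log2 change of Crot was -1.88 ± 0.27 (limma adjusted p = 0.00536).

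Crat, carnitine acetyltransferase, was the least abundant member in every library and one of the pair that rose. It stood at 16.4, 23.7, 14.1 and 16.4 FPKM at day 2, against 8.76 and 8.08 FPKM in the controls. The log2 change was 0.96 ± 0.25 (limma adjusted p = 0.031), with every day 2 library above both controls. Cpt1a, the outer membrane carnitine palmitoyltransferase that controls entry into mitochondria, had 72.3, 114, 55.0 and 61.1 FPKM at day 2 and 56.8 and 75.5 FPKM in the controls. These groups overlapped, and the log2 change was 0.14 ± 0.34 (limma adjusted p = 0.778). Its inner membrane partner Cpt2 varied little, from 52.3 to 62.0 FPKM at day 2 and from 50.03 to 59.8 FPKM in control. Of the remaining synthetases, Acsl5 reached 169 FPKM in day 2 replicate 3 and 55.2 to 70.3 FPKM in the other day 2 libraries, and the medium-chain enzyme Acsm1 ranged from 27.7 to 134 FPKM at day 2, against 186 and 188 FPKM in control (log2 change -1.67 ± 0.60; limma adjusted p = 0.0792). Without day 2 replicate 3, its highest day 2 library, Acsm1 was called at -2.07 (limma adjusted p = 0.0225). Leaving out the day 2 library nearest control enlarges the change by construction, so this call adds no further evidence.

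Among the acyl-CoA dehydrogenases, which carry out the first oxidation of each round, Acadl stood at 156, 197, 100 and 148 FPKM at day 2, against 70.4 and 74.2 FPKM in the controls. Even the lowest day 2 library, replicate 3, lay above both controls. The log2 change was 1.01 ± 0.29 (limma adjusted p = 0.0429). Acadm, the medium-chain enzyme, had 101, 135, 141 and 183 FPKM at day 2 and 145 and 164 FPKM in control, with overlapping groups and a log2 change of -0.17 ± 0.27 (limma adjusted p = 0.67). Acad11, which acts on long and very long chains, fell to 53.6, 52.1, 39.9 and 44.2 FPKM at day 2, against 92.0 and 106 FPKM in control. The groups did not overlap, and Acad11 had a log2 change of -1.05 ± 0.24 (limma adjusted p = 0.0198). Acadvl and Acads, for very long and short chains, had log2 changes of 0.32 and -0.02 and did not pass.

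The later mitochondrial steps did not pass the test at day 2. Hadha, with the hydratase and a dehydrogenase activity of the trifunctional protein, stood at 72.8, 77.2, 108 and 96.5 FPKM at day 2 and 103 and 113 FPKM in control (log2 change -0.30 ± 0.28; limma adjusted p = 0.457). Hadhb, its thiolase subunit, stood at 137, 151, 97.4 and 169 FPKM at day 2 and 93.4 and 98.1 FPKM in control (log2 change 0.50 ± 0.35; limma adjusted p = 0.333). For both subunits day 2 replicate 3 lay at the control level. Among the remaining mitochondrial enzymes of these steps, log2 changes were -0.75 for Hadh, -0.40 for Echs1, -0.03 for Acaa2, 0.23 for Decr1 and -0.61 for Eci1.

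Ratios between partner genes were also examined. They were chosen after the values had been seen and carry no test. The Hadhb to Hadha ratio of FPKM was 1.88, 1.95, 0.904 and 1.76 in day 2 replicates 1 to 4, 1.23 and 1.63 at day 14, and 0.904 and 0.872 in control. Day 2 replicate 3 had the control ratio while the other 5 hepatectomy libraries exceeded it. With the length and GC trend removed, the day 2 log2 changes were 0.62 ± 0.35 for Hadhb and -0.19 ± 0.28 for Hadha. Etfb and Etfa encode the subunits of the electron transfer flavoprotein. Their ratio was 4.30, 4.69, 4.52 and 4.30 at day 2, 3.86 and 3.62 at day 14, and 1.81 and 1.71 in control, with no overlap between hepatectomy and control libraries. At day 2 Etfb had a log2 change of 0.53 ± 0.32 and Etfa of -0.80 ± 0.31, neither of which passed. The Etfb transcript is short, at 893 bases, and GC-rich. With the length and GC trend removed the changes were -0.11 ± 0.33 for Etfb and -0.80 ± 0.26 for Etfa, a smaller gap of the same direction. The Crat to Crot ratio was 0.270, 0.329, 0.252 and 0.164 at day 2, 0.162 and 0.103 at day 14, and 0.0354 and 0.0291 in control, and every hepatectomy library exceeded both controls.

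**Figure D2:**
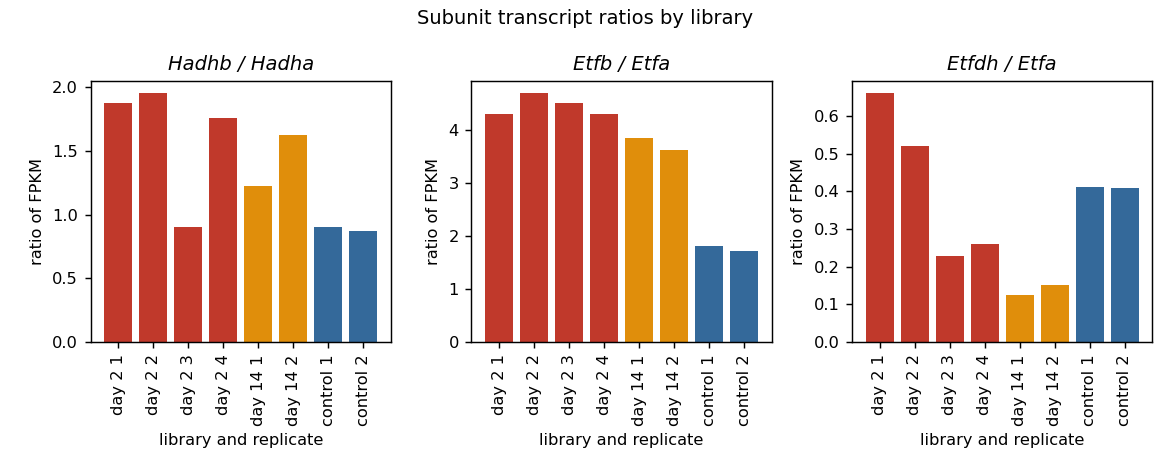
Ratios of FPKM between partner genes in each library, with bars starting at 0 and colours for day 2 (red), day 14 (orange) and control (blue). The Etfb to Etfa ratio is 3.62 to 4.69 in the hepatectomy libraries and 1.71 and 1.81 in control. The Etfdh to Etfa ratio is 0.123 and 0.150 at day 14 against 0.411 and 0.409 in control. At day 2 it lies on both sides of control, at 0.660, 0.522, 0.229 and 0.261 in replicates 1 to 4.

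Of the peroxisomal members, Scp2, Abcd3 and Crot fell at day 2. Scp2, which encodes a sterol carrier protein and a peroxisomal thiolase, was the most abundant member in every library. It stood at 758, 1015, 1086 and 1299 FPKM at day 2, against 2299 and 2213 FPKM in control. All day 2 libraries lay below both controls, with a log2 change of -1.14 ± 0.28 (limma adjusted p = 0.0267). Scp2 alone made up 17.4% to 21.9% of the summed FPKM of the 33 members at day 2, and 33.5% and 31.8% in control. The summed FPKM of all members was 4344 to 5921 at day 2 and 6858 and 6949 in control. Without Scp2 it was 3586 to 4752 at day 2 and 4559 and 4737 in control, which overlap.

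Abcd3, a transporter of acyl-CoA across the peroxisomal membrane, stood at 72.2, 98.7, 59.6 and 63.3 FPKM at day 2, against 144 and 146 FPKM in control. The groups did not overlap, and the log2 change was -1.0 ± 0.27 (limma adjusted p = 0.0361). Ehhadh, the bifunctional hydratase and dehydrogenase, was at 84.0, 106, 36.4 and 92.0 FPKM at day 2 and 63.9 and 60.6 FPKM in control. Replicate 3 lay below the controls and the other 3 above them (log2 change 0.25 ± 0.46; limma adjusted p = 0.715). Hsd17b4, which acts at the same steps on branched chains and bile acid precursors, had a log2 change of -0.67 ± 0.21 and just missed the threshold (limma adjusted p = 0.0578).

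Acaa1b, a peroxisomal thiolase, stood at 151, 314, 87.7 and 173 FPKM at day 2, against 324 and 333 FPKM in control (log2 change -1.0 ± 0.45; limma adjusted p = 0.144). Without day 2 replicate 2, its highest day 2 library, Acaa1b was called at -1.31 (limma adjusted p = 0.0326). That library was left out for its high value, so this call too adds no further evidence. Its near copy Acaa1a had 74.0, 171, 70.5 and 74.0 FPKM at day 2 and 101 and 112 FPKM in control. Both lie on chromosome 9, and 35.5% of the 50-base words in the Acaa1b transcript also occur in that of Acaa1a, so their levels are uncertain where reads were divided between them. Acox2, an oxidase for branched chains, and Decr2, an auxiliary reductase, had log2 changes of 0.22 and -0.62.

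The auxiliary enzymes that act at both organelles, Ech1 and Eci2, which rearrange double bonds, split the day 2 libraries. Ech1 stood at 355, 497, 141 and 400 FPKM at day 2, against 150 and 170 FPKM in control. Replicate 3 lay below the controls while the other 3 lay far above them (log2 change 0.98 ± 0.47; limma adjusted p = 0.164). Without day 2 replicate 3 the log2 change was 1.37 (limma adjusted p = 0.014). That library was left out after its low value was seen, which raises the change by construction, so this adds no further evidence. Eci2 stood at 214, 209, 110 and 191 FPKM at day 2, against 107 and 118 FPKM in control, again with replicate 3 at the control level. Without replicate 3 the log2 changes of Eci2 and Ehhadh against control were 0.86 and 0.58, and neither was called (limma adjusted p = 0.0574 and 0.229). Across the 33 members, replicate 3 was the lowest day 2 library for 17, and the share over all genes was not computed.

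The ketone body member did not pass the test at day 2. Bdh1, which interconverts the main ketone bodies in mitochondria, stood at 87.1, 52.7, 102 and 97.2 FPKM at day 2 and 91.7 and 95.7 FPKM in control (log2 change -0.19 ± 0.34; limma adjusted p = 0.706). The groups overlapped. Of 9 other listed ketone body genes 8 were tested, none rose and 1 fell. That gene was Bdh2, a cytosolic dehydrogenase, at -0.90 ± 0.25 log2 units.

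**Figure D3:**
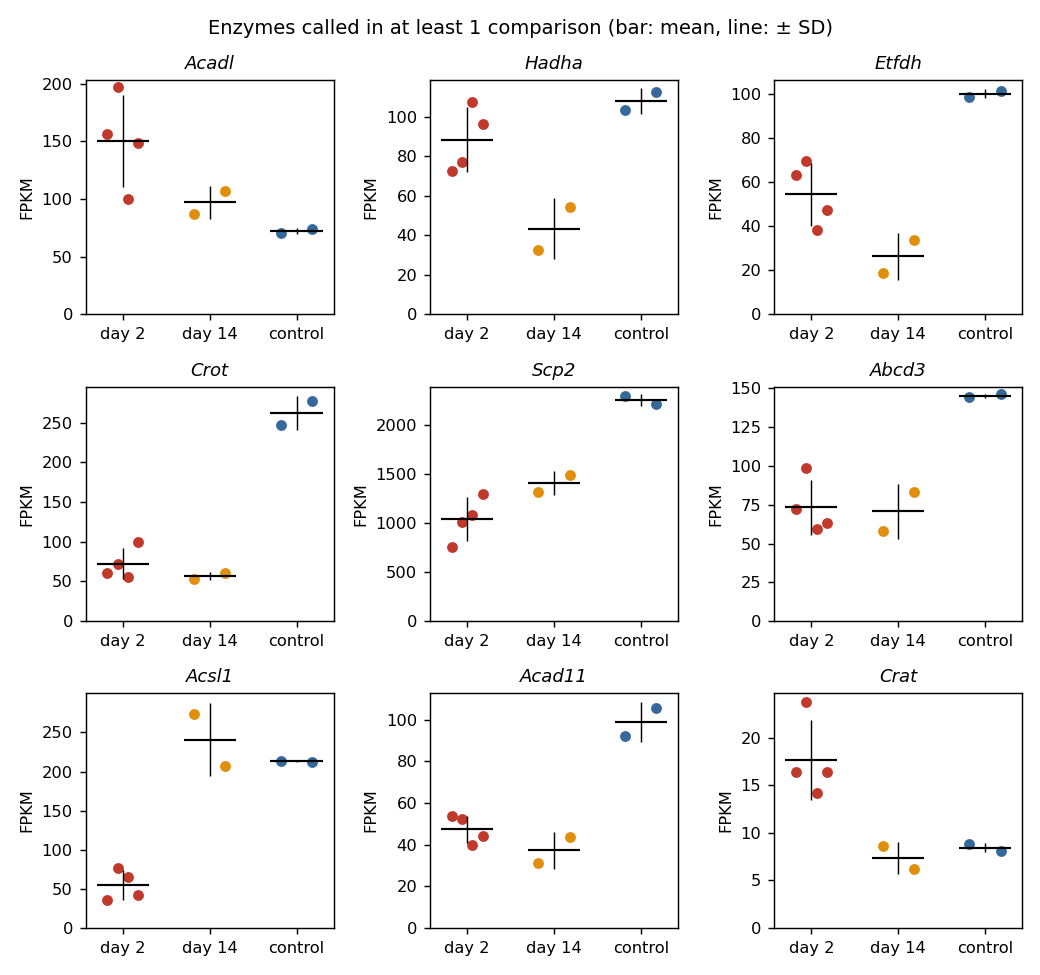
FPKM of the 9 enzymes called in at least 1 comparison, with 1 point per library, a horizontal bar for the group mean and a vertical line for ± SD (n = 4 at day 2, n = 2 at day 14, n = 2 in control). Acsl1 is low at day 2 and near control at day 14, whereas Crot, Acad11, Etfdh, Scp2 and Abcd3 are below control at both times.

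Other listed genes of the pathway are read against the 9.72% of all genes that rose and the 11.5% that fell at day 2. Of 15 tested other peroxisomal genes 6 fell and 2 rose, with a median log2 change of -0.68. Nudt7, which degrades coenzyme A in peroxisomes, fell to 62.8 ± 32.1 FPKM at day 2 (n = 4), against 591 ± 13.1 FPKM in control (n = 2), a log2 change of -3.35 ± 0.46 (limma adjusted p = 0.00449). Cat, catalase, fell by 2.28 on the log2 scale, to 238 ± 71.8 FPKM at day 2, against 1121 ± 4.17 FPKM in control. Acot3, an acyl-CoA thioesterase with close copies nearby, rose to 5.80 ± 2.57 FPKM at day 2, against 0.0717 ± 0.0370 FPKM in control, a log2 change of 2.56 ± 0.44 that was 4.97 with a pseudocount of 0.1.

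Of 15 tested other mitochondrial genes 2 rose and 3 fell. The thioesterase gene Acot2, also with close copies, rose by 2.86 ± 0.60 log2 units (4.26 with a pseudocount of 0.1), and Acsm5 and Acsm3, medium-chain synthetases, fell by 2.26 and 2.13 on the log2 scale. Of 8 other tested acyl-CoA synthetases 3 fell and none rose, with log2 changes of -2.44 for Acss2, -1.26 for Slc27a5 and -1.12 for Acss3 (-2.57 with a pseudocount of 0.1). None of the 16 genes for peroxisome assembly was called. Among 14 regulators 3 fell and none rose, including Lpin1, a PPAR-alpha coactivator, at -1.26 ± 0.35. Ppara, the gene of the receptor, stood at 13.8, 18.04, 6.84 and 4.17 FPKM at day 2 and 26.1 and 28.9 FPKM in control, without overlap, and missed the threshold (log2 change -1.46 ± 0.48; limma adjusted p = 0.0635).

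Among these other genes at day 2, Nudt7, Cat, Acot3, Acot2 and Acsm3 were called in 14 of 16 alternatives, Slc27a5 in 10, Bdh2 and Acsm5 in 9, Acss2 in 8 and Lpin1 in 7, and each was lost without either control library.

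The day 2 calls rest on a small control group. Without either control library no member was called at day 2 (limma adjusted p of 0.0688 and 0.0805 for Crot, without replicate 1 and without replicate 2). Without day 2 replicate 1 there were 3 calls and without day 2 replicate 4 there were 4, and neither fit called Acadl or Crat. Of 16 alternatives Acadl was called in 6, Abcd3 in 9, Scp2 in 11, Crat in 12, Acad11 in 13, and Crot and Acsl1 in 14. Acadl was also lost without day 2 replicate 2, without either day 14 library and when the fit held day 2 and control alone. Scp2 was also lost without day 2 replicate 1, and Abcd3 without day 2 replicate 1, 3 or 4. Without the filter on low values Acadl, Scp2 and Abcd3 were lost, at limma adjusted p of 0.064, 0.065 and 0.0519. After removal of the length and GC trend, 3 of the 7 remained, Crot, Acsl1 and Crat, while Acadl, Scp2, Abcd3 and Acad11 stood at limma adjusted p of 0.0566, 0.0509, 0.157 and 0.0591. Their log2 changes were then 1.11, -0.91, -0.67 and -0.84, against 1.01, -1.14, -1.0 and -1.05 before.

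The next question was how the liver at day 14, under eLO according to the design text, compared with normal liver. Crot and Acad11 lay below control as they did at day 2, while Acsl1 lay near control. Hadha and Etfdh, which were not called at day 2, fell. In all 4 of 33 members fell and none rose, where 9.79% of all genes were called, 4.58% lower and 5.21% higher (limma adjusted p under 0.05). The members' median log2 change was -0.39, against 0.00 for all genes. It was -0.39 for mitochondrial and -0.68 for peroxisomal members, and the mitochondrial value was -0.11 without day 14 replicate 1 and -0.81 without day 14 replicate 2. At an unadjusted p under 0.05 there were 10 members, where 29.8% of all genes passed. Day 14 values lay wholly below control in 18 members and wholly above in 5, where 35.7% and 35.3% of all genes did so.

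Etfdh, which passes electrons from the flavoprotein to ubiquinone, stood at 18.9 and 33.9 FPKM at day 14, against 98.8 and 102 FPKM in control. Both day 14 libraries lay far below both controls, and the log2 change of Etfdh was -1.94 ± 0.37 (limma adjusted p = 0.0296). At day 2 it had stood at 63.0, 69.5, 38.1 and 47.5 FPKM, also below control without passing (log2 change -0.90 ± 0.32; limma adjusted p = 0.0796). Hadha stood at 32.5 and 54.2 FPKM at day 14, against 103 and 113 FPKM in control, a log2 change of -1.34 ± 0.32 (limma adjusted p = 0.042). Its groups did not overlap, and its partner Hadhb, at 39.8 and 88.1 FPKM at day 14, did not pass (log2 change -0.68 ± 0.41; limma adjusted p = 0.303).

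Crot stood at 52.7 and 60.1 FPKM at day 14, with a log2 change against control of -2.20 ± 0.32 (limma adjusted p = 0.02). Acad11 stood at 31.1 and 43.4 FPKM at day 14, with a log2 change of -1.40 ± 0.27 (limma adjusted p = 0.0296). For both genes each of the 6 hepatectomy libraries lay below each control. The same held for Etfdh, Scp2, Abcd3, Etfa and Hsd17b4, and the share over all genes was not computed. Acsl1 had 274 and 208 FPKM at day 14, on both sides of the controls (log2 change 0.16 ± 0.39; limma adjusted p = 0.83). Scp2, at 1321 and 1494 FPKM, and Abcd3, at 58.1 and 83.2 FPKM, lay below control without passing, with limma adjusted p of 0.202 and 0.0707.

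The enzymes fixed for description gave no further call at day 14. Cpt1a stood at 36.9 and 55.6 FPKM, below both controls (log2 change -0.52 ± 0.39; limma adjusted p = 0.41). Acadm stood at 115 and 137 FPKM, also below both controls (log2 change -0.29 ± 0.32; limma adjusted p = 0.585). Acaa1b, at 299 and 410 FPKM, lay on both sides of the controls (log2 change 0.09 ± 0.52; limma adjusted p = 0.934). Ehhadh stood at 17.7 and 36.8 FPKM, below both controls (log2 change -1.25 ± 0.53; limma adjusted p = 0.156). Bdh1 stood at 48.0 and 81.9 FPKM (log2 change -0.57 ± 0.39; limma adjusted p = 0.364). Crat, at 8.56 and 6.18 FPKM, had 1 library between the controls and 1 below them, and Acadl, at 87.1 and 107 FPKM, lay above both controls without passing (log2 change 0.41 ± 0.34; limma adjusted p = 0.453).

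The pair of day 14 libraries differed from each other for these genes. Replicate 1 was lower than replicate 2 for 30 of 33 members, and its median log2 level against control was -0.77, against -0.16 in replicate 2. For all genes tested these medians were -0.04 and 0.03. The gap was widest for Echs1, the short-chain hydratase, at 32.9 and 114 FPKM, and for Acads at 19.9 and 60.1 FPKM. Their log2 changes against control were -1.33 and -1.17, and -2.21 and -1.95 without replicate 2. The ratio of the higher to the lower library had a median of 1.51 over the members at day 14, 1.94 at day 2 with 4 libraries, and 1.05 in control.

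**Figure D4:**
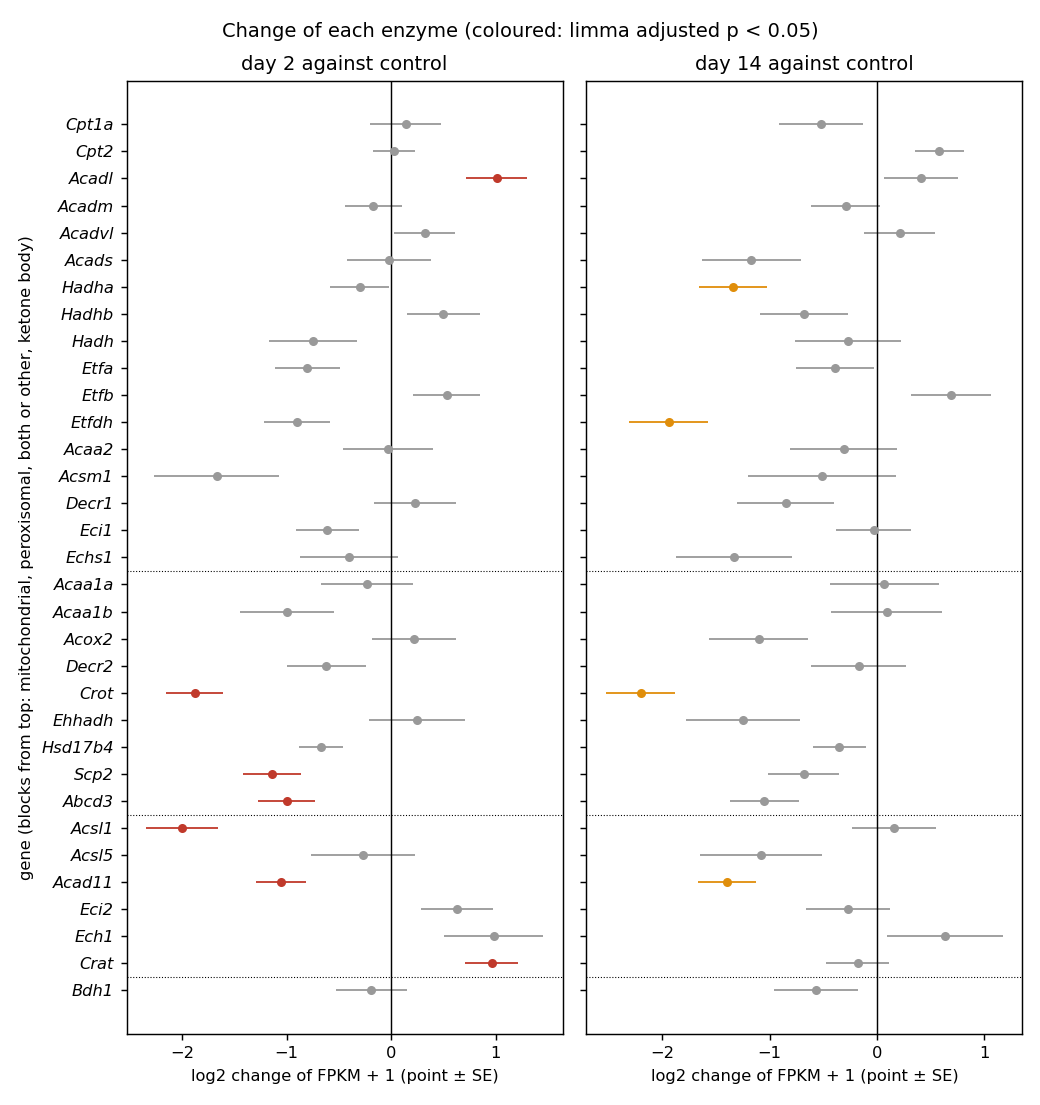
Log2 change (point) and SE (line) of each enzyme at day 2 against control (left) and at day 14 against control (right), in blocks by compartment from top to bottom. Coloured points passed the test, 7 at day 2 and 4 at day 14, and the 2 panels share the same control libraries.

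Other listed genes at day 14 are read against 5.21% of all genes higher and 4.58% lower. Of 8 tested ketone body genes 1 rose and 1 fell. Aacs, a cytosolic acetoacetyl-CoA synthetase, rose to 63.9 and 54.3 FPKM, against 15.3 and 6.77 FPKM in control (log2 change 2.41 ± 0.46; limma adjusted p = 0.0296). Slc16a1, a monocarboxylate transporter that carries ketone bodies and lactate, fell to 4.70 and 6.87 FPKM, against 13.7 and 17.9 FPKM in control (log2 change -1.32 ± 0.30; limma adjusted p = 0.0373). Of 14 regulators 2 rose, Esrra, a nuclear receptor of mitochondrial genes, at 1.85 ± 0.39 and Tfeb, a lysosomal regulator, at 1.24 ± 0.25. None of the 15 other peroxisomal genes or 16 assembly genes was called. Of 15 other mitochondrial genes 1 rose, the thioesterase gene Acot13 at 1.33 ± 0.23, named after its value was seen. The Acot13 transcript is short, at 721 bases, and whether its call held in the alternatives is not reported here. Ppara had a log2 change of -0.91 ± 0.56 and did not pass (limma adjusted p = 0.314). Acss3 was the only one of 8 other synthetases called, at -0.96 ± 0.22. With a pseudocount of 0.1 it stood at -1.99 and was not called (limma adjusted p = 0.097), and its call held in 6 of 15 alternatives. Of 16 alternatives the day 14 calls of Aacs held in 12, of Esrra and Tfeb in 11 and of Slc16a1 in 9, and all 4 were lost without day 14 replicate 1. After removal of the length and GC trend the calls of Esrra, Tfeb, Slc16a1 and Acss3 were lost as well.

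The day 14 calls depend on single libraries and on the correction. Without day 14 replicate 1, or without either control library, no member was called, and over all genes 1 or 2 were. After removal of the length and GC trend Crot alone remained (log2 change -1.94 ± 0.31; limma adjusted p = 0.0267), and Etfdh, Acad11 and Hadha stood at limma adjusted p of 0.0535, 0.0601 and 0.0763. Their log2 changes were then -1.77, -1.15 and -1.17, against -1.94, -1.40 and -1.34 before. Hadha was also lost without day 2 replicate 1 or 4 and without the filter on low values.

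The last question was which enzymes differed between day 14 and day 2. Acsl1 was higher at day 14, and Crat and Hadha were lower. Thus 1 of 33 members rose and 2 fell, where 16.1% of all genes were called, 9.09% higher and 7.03% lower. The median log2 change of the members was -0.32, against -0.03 for all genes. It was -0.28 for mitochondrial and 0.30 for peroxisomal members, against -0.04 and 0.48 without day 14 replicate 1 and -0.74 and -0.25 without day 14 replicate 2. At an unadjusted p under 0.05 there were 12 members, where 34.0% of all genes passed. Day 14 values lay wholly below day 2 in 6 members and wholly above in 3, where 20.4% and 21.2% of all genes did so.

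Acsl1 averaged 241 ± 46.7 FPKM (n = 2) at day 14 and 54.9 ± 19.3 FPKM (n = 4) at day 2, without overlap, for a log2 change of 2.16 ± 0.34 (limma adjusted p = 0.00822). Crat averaged 7.37 ± 1.69 FPKM at day 14 and 17.7 ± 4.19 FPKM at day 2, a log2 change of -1.15 ± 0.25 (limma adjusted p = 0.0215), also without overlap. Hadha averaged 43.3 ± 15.4 FPKM at day 14 and 88.5 ± 16.4 FPKM at day 2, a log2 change of -1.04 ± 0.28 (limma adjusted p = 0.0412). Close to the threshold lay Hadhb, at -1.18 ± 0.35 (limma adjusted p = 0.0558), Acox2 at -1.31 ± 0.40 (0.0563) and Ehhadh at -1.50 ± 0.46 (0.0581). The fixed members Cpt1a, Acadm, Acaa1b and Bdh1 had log2 changes of -0.67, -0.12, 1.09 and -0.38 and did not pass. Without day 2 replicate 2 Acaa1b was called at 1.40 (limma adjusted p = 0.0304). Its day 2 level was highest in that library, so this call adds no further evidence.

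Genes outside the set are read against the 9.09% of all genes higher and 7.03% lower at day 14 than at day 2. Of 15 tested other peroxisomal genes 6 were higher and 1 lower at day 14 than at day 2, with Nudt7 at 3.45 ± 0.46, Cat at 1.72 ± 0.31 and Acot3 at -1.59 ± 0.44 log2 units. Of 8 tested ketone body genes 2 were higher, Aacs at 2.74 ± 0.40 and Bdh2 at 1.91 ± 0.25, and 2 were lower, among them Slc16a1 at -1.65 ± 0.26. Of 14 regulators 2 were higher, Tfeb at 1.23 ± 0.22 and Foxa2, a liver transcription factor named after its value was seen, at 1.2 ± 0.33. The peroxisome assembly genes Pex26 and Pex10 were higher at day 14, by 1.67 ± 0.36 and 1.34 ± 0.38, as was the bile acid and fatty acid CoA ligase Slc27a5, by 1.74 ± 0.37. In the other mitochondrial list 3 were higher and 3 lower of 15, including Acsm5 at 2.12 ± 0.59 and Acot2 at -2.08 ± 0.60. Several of these calls were fragile. Of 16 alternatives Acot3 and Acot2 were called in 5, Pex10 in 6 and Acsm5 in 7. Pex10 was lost with a pseudocount of 0.1, without the filter and with a filter at 5 FPKM. Nudt7, Aacs, Bdh2, Slc16a1 and Tfeb were called in 15, and lost without day 14 replicate 1.

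These calls too rest on few libraries. Without day 14 replicate 1 no member was called, and without either control library, or with only day 14 and day 2 in the fit, Acsl1 alone was. Without day 2 replicate 3, whose Ehhadh, Ech1 and Eci2 were low, 6 members and 1739 of all 12340 genes were called. Ehhadh at -1.83 (limma adjusted p = 0.0155), Eci2 at -1.13 (0.0347), Hadhb at -1.34 (0.0443) and Etfdh at -1.19 (0.0443) were then called, and Hadha was not, at -0.94 (0.0686). Replicate 3 was the lowest day 2 library for each gene gained. Leaving it out widens the change by construction, so the gained calls add no further evidence. Of 16 alternatives Hadha was called in 8, Crat in 11 and Acsl1 in 15.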

How the data were processed

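RNA of 8 mouse liver libraries was measured. The authors deposited FPKM values per gene, per the file headers. Per the submitters' processing notes the tools were Cufflinks 2.2.1, HTSeq, DESeq2 and HISAT2 2.10 and the builds mm9 and GRCm38, without role or order. How the table was made and scaled is not given in the sources used here.

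FPKM was transformed to log2(FPKM + 1), which understates changes of low genes. The filter of 1 FPKM or more in 2 or more libraries left 12340 genes. The limma 3.58.1 model (R 4.3.3, trend option) gave a mean to each of the 3 groups over all 8 libraries. Calls used Benjamini-Hochberg adjusted p under 0.05, per comparison. Replicates of the operated groups are numbered in accession order, not by the numbers in their titles. The method was tested on simulated data. Lengths, GC content and coordinates came from GENCODE M21 on GRCm38, promoter windows from RefSeq.

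Members, lists and rules were chosen with earlier results of these data known. Values are given for every member called in any comparison and for Cpt1a, Acadm, Hadha, Ehhadh, Acaa1b and Bdh1. From each other list up to 3 called genes with the largest change are named, and Ppara. Some listed genes are counted but not reported by name here. Alternatives were other pseudocounts, filters, scalings and fits, removal of length and GC trends with splines of 4 degrees of freedom, and leaving out each library. Figures used matplotlib 3.10.9 in Python 3.11.15.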

Additional observations from a re-analysis of the deposited data

Results flagged for a closer look

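In 4 of 33 members tested, 1 of the 4 day 2 libraries stood far from the rest by Dixon's criterion, which chance meets in about 1 of 20 groups. Eci1 was highest in day 2 replicate 4 at 81.3 FPKM. Hsd17b4 was highest in day 2 replicate 4 at 109 FPKM. Acaa1a was highest in day 2 replicate 2 at 171 FPKM. Acsl5 was highest in day 2 replicate 3 at 169 FPKM.

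The change from control differed between day 14 and day 2 for 3 members, which is the comparison of the 2 times itself, since the controls are shared. The difference was -1.04 log2 units for Hadha, 2.16 for Acsl1 and -1.15 for Crat (limma adjusted p = 0.0412, 0.00822 and 0.0215).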

How the results depend on the processing

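At day 2 against control, removal of the length and GC trend gave 1609 calls over all genes and 3 among members, against 2620 and 7. At day 14 against control, no filter on low values gave 691 calls over all genes, only the 2 compared groups gave 2664, and trend removal gave 381 with 1 member, against 1208 and 4. At day 14 against day 2, quantile scaling gave 5 members against 3, and only the 2 compared groups gave 982 calls and 1 member, against 1990 and 3. Leaving out 1 library gave 112 to 2837 calls and 0 to 8 members at day 2 against control, 1 to 2049 calls and 0 to 6 members at day 14 against control, and 48 to 2414 calls and 0 to 6 members at day 14 against day 2. Counts over all genes moved by more than 1.5 times at day 2 against control without control replicate 1 (137), control replicate 2 (112) or day 2 replicate 1 (1736). At day 14 against control they did so without day 14 replicate 1 (1), day 14 replicate 2 (712), control replicate 1 (2), control replicate 2 (1) or day 2 replicate 1 (455), 2 (2049) or 4 (711). At day 14 against day 2 they did so without day 14 replicate 1 (48), day 14 replicate 2 (1322), control replicate 1 (978), control replicate 2 (979) or day 2 replicate 1 (1203). None of the called members changed direction in any alternative. All 7, 4 and 3 member calls held under median-ratio and quantile scaling, a pseudocount of 0.1 and a filter at 5 FPKM. A lone library left in a group was assumed to vary like the others. No paired analysis was possible because any 2 groups share only 1 number in their titles, the 2 of control replicate 2, day 14 replicate 1 and day 2 replicate 1, and no label says what that number marks. Depth limits are unknown without read counts.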

Other observations

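Markers of adipocytes summed to 15.4 to 250 FPKM at day 2, 9.80 to 12.7 FPKM at day 14 and 8.72 to 9.65 FPKM in control. These sums were nearly all Fabp4 and Cidec, which liver can also express, while the defining markers Adipoq and Plin1 were at or near 0 in every library. Cidec, a lipid droplet protein, stood at 142, 154, 1.64 and 20.96 FPKM in day 2 replicates 1 to 4, 0.528 and 1.43 FPKM at day 14 and 0.535 and 0.298 FPKM in control. Fgf21, a hormone induced by PPAR-alpha, stood at 22.2 and 9.62 FPKM in day 2 replicates 1 and 2, was listed at 0 in replicate 3, and stood at 0.607 FPKM in replicate 4. It stood at 1.61 and 0.0935 FPKM at day 14 and at 0.234 and 0.309 FPKM in control. Pdk4, which restrains pyruvate oxidation, stood at 15.7, 26.1, 1.01 and 10.3 FPKM at day 2, 0.711 and 0.551 FPKM at day 14 and 1.88 and 2.70 FPKM in control. Fgf21, Cidec and Pdk4 were lowest within day 2 in replicate 3, where Ech1 and Ehhadh were also lowest. These genes were picked after their values had been seen.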
